A study of Homo sapiens with 4 samples.

Results

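The genes described here are 10 regulators of the cell cycle, measured by RNA-seq in A549 cells transfected with small interfering RNA against *DLX6*. They are the transcription factor *FOXM1*, the kinases *CDK1*, *PLK1*, *PLK4*, *AURKA*, *AURKB* and *NEK2*, and the phosphatases *CDC25A*, *CDC25B* and *CDC25C*. All 10 have a row among the 51136 rows of the deposited table, and all 10 passed the filter that left 15504 genes to test. They were chosen by name as a family, by someone who already knew their FPKM values with si-DLX6 and with si-control. Their difference between these groups is therefore given as a description, with no test of the 10 as a set. Calls of single genes among them, from a fit across the whole table, are given as description too. The si-DLX6 group held 2 libraries of cells labelled as *DLX6* knockdown, and the si-control group held 2 libraries of cells labelled wild type that had received a control RNA. A549 is an established human lung adenocarcinoma line, and both groups were grown in medium with 10% serum. The labels also give an adipogenic differentiation treatment for all 4 libraries, which neither the titles nor the transfection protocol mention. The labels used here give no sequence, dose or time for the small interfering RNA. The si-DLX6 columns are named HR99SEQ1_Si and HR99SEQ2_Si, and whether both libraries received the same small interfering RNA is not stated. If they did not, its sequence and the library cannot be told apart. They also do not tie the 2 libraries of a group to separate cultures, so the p-values measure library-to-library spread alone, and that may be technical.

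Entry into mitosis turns on CDK1 bound to cyclin B. The kinases WEE1 and PKMYT1 hold this complex inactive by phosphorylation, and the CDC25 phosphatases remove those phosphates. PLK1 and the Aurora kinases act with CDK1 in centrosome maturation, spindle assembly and chromosome alignment, and NEK2 in centrosome separation, while PLK4 starts the duplication of centrioles. FOXM1 works with the B-MYB-MuvB complex at the promoters of many G2/M genes, where NF-Y binds CCAAT boxes and MuvB binds a short element called the cell cycle genes homology region (CHR).

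*DLX6*, a homeobox gene and the target of the small interfering RNA, was at 0.916 and 0.45 FPKM in the si-DLX6 libraries, against 3.27 and 3.47 FPKM in the si-control libraries, so its level followed the labels in all 4 libraries. FPKM is a level per gene length and per library total. The totals were 10485013 and 10665357 reads with si-DLX6, against 12075285 and 9678221 reads with si-control, and *DLX6* itself had 18 and 9 reads with si-DLX6, against 74 and 63 with si-control. Of 10 epithelial and lung markers, 3 reached 1 FPKM in at least 2 libraries, with *KRT8* and *KRT18* far above the rest. Surfactant genes *SFTPB* and *SFTPC* were listed at 0, and *EPCAM* and *CDH1* stayed below 1 FPKM. Of 8 fibroblast and 5 endothelial markers 0 reached 1 FPKM, and *PTPRC*, *CD3E*, *LYZ*, *ADIPOQ* and *LEP* were listed at 0 in all 4 libraries. The summed level was 526 to 578 FPKM with si-DLX6 and 572 to 614 FPKM with si-control for the epithelial list, nearly all of it the 2 keratins. *MUC1* of that list was higher with si-DLX6, at 2.96 and 3.72 FPKM, against 1.26 and 1.69 FPKM with si-control (0.81, adjusted p = 0.0303, limma). For the 6 immune markers, nearly all of it *CD68*, it was 103 to 118 FPKM with si-DLX6 and 64.4 to 69.8 FPKM with si-control, and *CD68* was called higher (0.72, adjusted p = 0.01, limma). For the 6 adipocyte markers, most of it *PPARG*, it was 2.06 to 2.13 FPKM with si-DLX6 and 1.15 to 1.57 FPKM with si-control. The fibroblast sum was 0.759 to 0.835 FPKM with si-DLX6 and 0.283 to 0.358 FPKM with si-control. The part of other cells in the results was not tested.

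The 10 genes together held 357 and 359 FPKM in the si-DLX6 libraries, against 559 and 550 FPKM in the si-control libraries. In 9 of the 10 both si-DLX6 values lay below both si-control values, and *PLK4* was the exception. Among all tested genes 27.9% had such an order. *CDC25B*, *FOXM1* and *PLK1* stood lowest relative to si-control, at 52.0%, 55.1% and 58.5% of the mean si-control FPKM, and *CDC25A*, *PLK4* and *CDC25C* nearest to it, at 87.5%, 86.5% and 79.5%. In RNA from whole cultures, fewer cells in G2 or mitosis and less RNA per cell cannot be told apart.

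**Figure D1:**
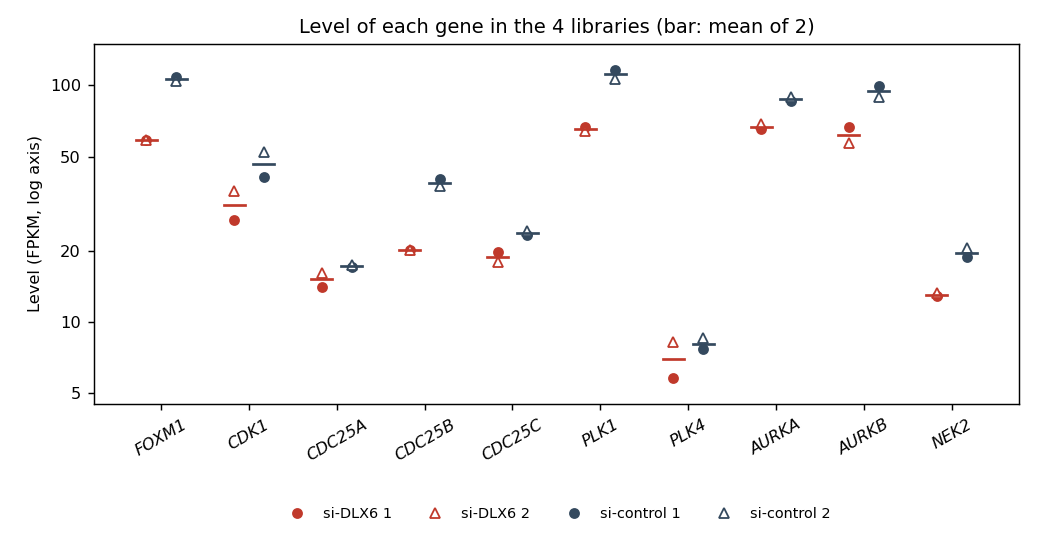
Level of each of the 10 genes (FPKM, log axis) in the si-DLX6 libraries (red) and the si-control libraries (dark), with circles for library 1, triangles for library 2 and a bar at the mean of the 2. The red points lie below the dark ones for every gene except *PLK4*, whose si-DLX6 values of 5.79 and 8.21 FPKM span its lower si-control value of 7.68 FPKM.

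*FOXM1*, the forkhead factor of the G2/M program, was at 58.9 and 58.5 FPKM with si-DLX6, against 108.8 and 104.2 FPKM with si-control. The libraries of a group lay close together and the groups far apart. The level averaged 58.7 ± 0.267 FPKM with si-DLX6 and 106.5 ± 3.25 FPKM with si-control (SD, n = 2 each). On the scale of log2(FPKM + 1), which the fit across all genes used, the difference was −0.85 (SE 0.09). These values rest on 2250 and 2274 reads with si-DLX6, against 4790 and 3677 with si-control. Scaled by library total, reads with si-DLX6 came to 55.0% of those with si-control, with an exact 95% interval of 53.0% to 57.0% that covers counting error only. *FOXM1* lies at chr12:2857681-2877155 on the minus strand (GENCODE 29, GRCh38). Its 5′ end overlaps 898 bases of *RHNO1*, a gene of the response to DNA damage on the other strand.

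*RHNO1* was at 34.8 and 31.6 FPKM with si-DLX6, against 49.1 and 48.7 FPKM with si-control, and is named here for its position, after its values were seen. Its log2 difference was −0.55 (adjusted p = 0.0165, limma, Benjamini-Hochberg over all tested genes), and the call was kept in 1 of the 4 fits that left out 1 library. The sources used here do not state whether reads were counted by strand, and reads from the overlap of this pair cannot be told apart. *ITFG2*, which overlaps the other end of *FOXM1*, did not pass the test (−0.08, adjusted p = 0.708, limma).

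*CDK1*, the kinase whose activity drives entry into mitosis, was at 26.9 and 35.8 FPKM with si-DLX6, against 41.1 and 52.4 FPKM with si-control. The groups did not overlap, but in both groups library 2 stood well above library 1. The level averaged 31.3 ± 6.31 FPKM with si-DLX6 and 46.7 ± 7.96 FPKM with si-control (SD, n = 2 each). Across the 4 pairs of a si-DLX6 and a si-control library, the first was 51.3% to 87.1% of the second, the widest range of the 10 genes except *PLK4*. The log2 difference was −0.57 (SE 0.17). It was −0.37 without si-DLX6 library 1, −0.39 without si-control library 2, −0.77 without si-DLX6 library 2 and −0.74 without si-control library 1. *CDK1* had 563 and 763 reads in the si-DLX6 libraries, against 992 and 1013 in the si-control libraries. The gene spans chr10:60778331-60794852 on the plus strand, in GENCODE 29 (GRCh38) as for the other genes.

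The 3 CDC25 phosphatases, which remove the inhibitory phosphates from CDKs, kept different shares of their si-control levels. *CDC25B*, thought to start CDK1 activation at the centrosome, was at 20.2 and 20.1 FPKM with si-DLX6, against 40.2 and 37.4 FPKM with si-control. It averaged 20.2 ± 0.0625 FPKM with si-DLX6 and 38.8 ± 1.96 FPKM with si-control (SD, n = 2 each), and its log2 difference of −0.91 (SE 0.10) was the lowest of the 10. *CDC25C*, part of the loop by which CDK1 activates itself, was at 19.8 and 17.9 FPKM with si-DLX6, against 23.3 and 24.1 FPKM with si-control, a log2 difference of −0.32 (SE 0.11). *CDC25A*, which also acts at the start of S phase on CDK2, was at 14.1 and 16.1 FPKM with si-DLX6, against 17.1 and 17.5 FPKM with si-control, a log2 difference of −0.18 (SE 0.12). Its groups did not overlap, yet the gap between the si-DLX6 libraries was about as large as the difference between the groups. The difference of *CDC25A* was −0.09 without si-DLX6 library 1. By reads per library total, *CDC25B* was at 51.8% of si-control (48.7% to 55.1%), *CDC25C* at 79.6% (72.9% to 86.9%) and *CDC25A* at 87.7% (81.2% to 94.6%), in each case with an exact 95% interval for counting error. *CDC25B* had 784 and 794 reads with si-DLX6, against 1794 and 1339 with si-control. *CDC25C* had 474 and 436 reads with si-DLX6, against 643 and 533 with si-control, and *CDC25A* had 577 and 671 with si-DLX6, against 804 and 660 with si-control.

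*CDC25B* lies at chr20:3786772-3806121 on the plus strand, *CDC25C* at chr5:138285265-138338355 on the minus strand, and *CDC25A* at chr3:48157146-48188402 on the minus strand. *CDC25C* shares 6421 bases with *FAM53C* on the other strand, which was at 12.3 and 14.4 FPKM with si-DLX6, against 16.8 and 16.9 FPKM with si-control and did not pass the test (−0.32, adjusted p = 0.122, limma). A pseudogene inside *CDC25A*, *NDUFB1P1*, was listed at 14.3 and 7.89 FPKM with si-DLX6, against 5.93 and 4.51 FPKM with si-control, and did not pass either (0.91, adjusted p = 0.0581, limma). Reads of these overlaps cannot be assigned to one strand here.

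The make-up of the CDC25 family, which needs no scaling between libraries, is given as shares, and no gene's share overlapped between the groups. The shares of a library make up a whole, so a lower share of *CDC25B* goes with higher shares of the others. *CDC25A* and *CDC25C* gained share although their own levels were lower with si-DLX6. How often the shares of other genes separate in this way was not counted. *CDC25B* held 37.4% and 37.2% of the summed CDC25 level in the si-DLX6 libraries, against 49.9% and 47.4% in the si-control libraries. *CDC25A* held 26.1% and 29.8% with si-DLX6, against 21.2% and 22.1% with si-control. *CDC25C* held 36.6% and 33.1% with si-DLX6, against 28.9% and 30.5% with si-control. With si-DLX6 *CDC25B* and *CDC25C* were at nearly the same level, 1.02 and 1.13 as the ratio of the pair, against 1.72 and 1.55 with si-control. *CDC25C* and *CDC25A* kept ratios of 1.40 and 1.11 with si-DLX6 and of 1.37 and 1.38 with si-control, which overlap.

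*PLK1*, the polo-like kinase that acts from centrosome maturation to cytokinesis, was at 66.6 and 63.8 FPKM with si-DLX6, against 116.3 and 106.6 FPKM with si-control. It averaged 65.2 ± 1.99 FPKM with si-DLX6 and 111.4 ± 6.89 FPKM with si-control (SD, n = 2 each), with a log2 difference of −0.76 (SE 0.10). Its 1556 and 1516 reads with si-DLX6, against 3128 and 2297 with si-control, give 58.2% of si-control per library total (55.7% to 60.9%). These reads imply a length of 2227 bases, against 4135 bases for the longest *PLK1* transcript in GENCODE 29. The length behind the deposited values is not known, so whether a factor common to all 4 libraries was lost cannot be told. *PLK1* spans chr16:23677656-23690367 (plus strand). *PLK1* and *FOXM1* stood at nearly the same ratio in every library, 1.13 and 1.09 with si-DLX6 and 1.07 and 1.02 with si-control, though these ranges do not overlap.

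*PLK4*, the kinase of centriole duplication, had the lowest level of the 10 and the least settled difference. It was at 5.79 and 8.21 FPKM with si-DLX6, against 7.68 and 8.52 FPKM with si-control, so the groups overlapped. Its log2 difference was −0.20 (SE 0.18), and it was 0.02 without si-DLX6 library 1, −0.42 without si-DLX6 library 2 and −0.13 without si-control library 2. With 235 and 339 reads with si-DLX6, against 359 and 319 with si-control, it came to 87.1% of si-control per library total (77.8% to 97.5%). *PLK4* spans chr4:127880861-127899195 (plus strand). *PLK1* was 11.5 and 7.77 times the level of *PLK4* in the si-DLX6 libraries, against 15.1 and 12.5 times in the si-control libraries.

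*AURKA*, which acts at centrosomes and spindle poles, was at 65.4 and 68.3 FPKM with si-DLX6, against 86.3 and 89.2 FPKM with si-control. It averaged 66.8 ± 2.08 FPKM with si-DLX6 and 87.7 ± 2.03 FPKM with si-control (SD, n = 2 each), a log2 difference of −0.39 (SE 0.09). Whether the recovered reads, 873 and 928 with si-DLX6 and 1327 and 1099 with si-control, lost such a factor cannot be told either. They imply a length of 1274 bases, against 2248 bases for the longest *AURKA* transcript in GENCODE 29. *AURKB*, the kinase of the chromosomal passenger complex at centromeres, was at 66.6 and 57.3 FPKM with si-DLX6, against 99.5 and 89.7 FPKM with si-control. It averaged 61.9 ± 6.57 FPKM with si-DLX6 and 94.6 ± 6.93 FPKM with si-control (SD, n = 2 each), a log2 difference of −0.61 (SE 0.12). *AURKB* had 961 and 841 reads with si-DLX6, against 1654 and 1195 with si-control, or 65.0% of si-control per library total (61.3% to 69.0%). *AURKA* lies at chr20:56369389-56392337 and *AURKB* at chr17:8204733-8210600, both on the minus strand. The ratio of *AURKB* to *AURKA* was 1.02 and 0.838 with si-DLX6, against 1.15 and 1.01 with si-control, and these ranges overlap. A copy of *AURKA*, the pseudogene *AURKAPS1*, was listed at 4.65 and 5.31 FPKM with si-DLX6, against 6.47 and 6.79 FPKM with si-control, and reads may be shared between the pair.

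*NEK2*, the NIMA-related kinase that loosens the link between centrosomes, was at 12.9 and 13.3 FPKM with si-DLX6, against 18.7 and 20.5 FPKM with si-control. It averaged 13.1 ± 0.279 FPKM with si-DLX6 and 19.6 ± 1.27 FPKM with si-control (SD, n = 2 each), a log2 difference of −0.55 (SE 0.11). Its values rest on 289 and 303 reads with si-DLX6, against 485 and 426 with si-control, which give 66.8% of si-control (60.2% to 74.2%). *NEK2* lies at chr1:211658657-211675630 on the minus strand. Of its 4 pseudogenes in the table the highest, *NEK2P4*, stayed below 1 FPKM.

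The order of the mean levels was not the same in both groups, neither among the highest 4 genes nor between *CDC25A* and *NEK2*. With si-DLX6 it ran *AURKA*, *PLK1*, *AURKB*, *FOXM1*, *CDK1*, *CDC25B*, *CDC25C*, *CDC25A*, *NEK2* and *PLK4*, and the values of the first 3 overlapped, as did those of *AURKB* and *FOXM1*. With si-control it ran *PLK1*, *FOXM1*, *AURKB*, *AURKA*, *CDK1*, *CDC25B*, *CDC25C*, *NEK2*, *CDC25A* and *PLK4*. There *PLK1* ranged from 106.6 to 116.3 FPKM and overlapped *FOXM1*, and *AURKB* at 89.7 to 99.5 FPKM stood just above *AURKA* at 86.3 to 89.2 FPKM. *CDC25A* stood above *NEK2* with si-DLX6, at 14.1 to 16.1 against 12.9 to 13.3 FPKM, and below it with si-control, at 17.1 to 17.5 against 18.7 to 20.5 FPKM, with no overlap in either group. *AURKA* was at 1.11 and 1.17 times the level of *FOXM1* in the si-DLX6 libraries, against 0.793 and 0.856 times in the si-control libraries.

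**Figure D2:**
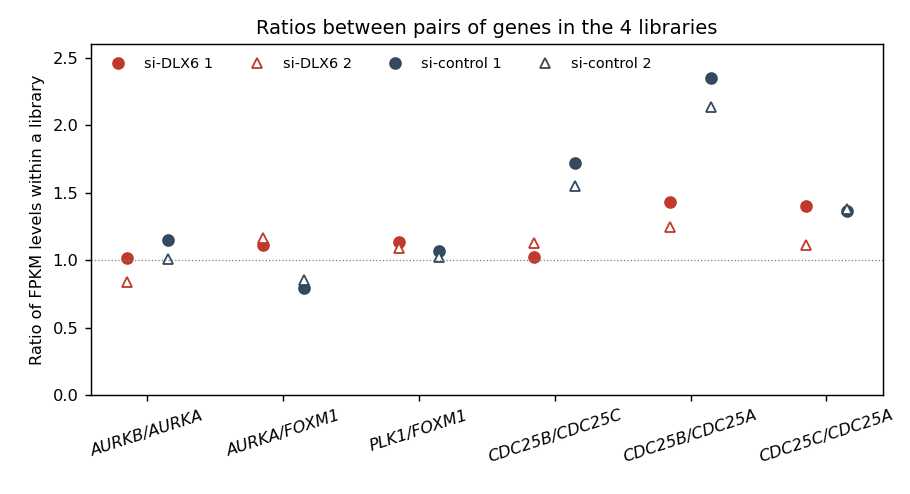
Ratio of the FPKM levels of 2 genes within each library, with si-DLX6 libraries in red and si-control libraries in dark (circle, library 1; triangle, library 2; dotted line, equal levels). *CDC25B* relative to *CDC25A* was at 1.43 and 1.25 with si-DLX6, against 2.35 and 2.14 with si-control, while the ratios of *PLK1* to *FOXM1* stayed between 1.02 and 1.13 in all 4 libraries.

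Promoters of several of these genes are known for CHR elements and CCAAT boxes, and they are shown because most of the 10 were lower together. RefSeq promoters (GRCh38.p14, 250 bases before to 50 bases from the start on) were at hand for 8 of the 10, in 18 entries, since 5 of the genes have several annotated starts. Both strands were searched for TTTGAA or TTTAAA as CHR words and for CCAAT as the NF-Y box. A CHR word stood in at least 1 entry of 5 of the 8 genes and an NF-Y box in 8 of 8. By entry these were 7 and 12 of 18, against 24.0% and 34.6% of 34943 promoters of the whole table. In *CDC25B* and *PLK4* the CHR word lay after the start, in an entry with no NF-Y box. Genes with several entries had more chances of a match. Some entries of a gene overlap, so the same site can be counted in more than 1 entry, as in *AURKB* and *CDC25C*. Both words shared an entry in *PLK1*, *CDK1* and *CDC25C*, and in 9.30% of all promoters. The words TTCCCGC or TTGGCGC, read as E2F sites, stood in an entry of 5 of the 8 genes (9.22% of all promoters), and the forkhead word TAAACA in *CDK1* (12.3%). The shares for shared entries and for these words count single promoters, so they are not on the scale of these counts by gene. A match is a run of letters, not a shown binding site, and which start A549 cells use is not known from these data. The 120 bases around 1 start of 6 genes follow, from 100 before it to 19 after it, read 5′ to 3′ along the gene and ordered by their log2 difference, with CHR words and NF-Y boxes in capitals (as ATTGG or TTCAAA where the word lies on the other strand).
CDC25B (chr20:3796210-3796329, plus strand): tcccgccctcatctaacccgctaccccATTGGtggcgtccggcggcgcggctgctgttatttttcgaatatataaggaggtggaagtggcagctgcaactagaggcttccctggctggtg
PLK1 (chr16:23678789-23678908, plus strand): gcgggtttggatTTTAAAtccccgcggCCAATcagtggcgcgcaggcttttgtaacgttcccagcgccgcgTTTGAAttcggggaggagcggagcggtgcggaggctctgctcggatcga
CDK1 (chr10:60778378-60778497, plus strand): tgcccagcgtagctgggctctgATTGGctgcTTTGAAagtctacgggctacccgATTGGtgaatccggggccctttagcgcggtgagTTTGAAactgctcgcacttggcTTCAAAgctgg
NEK2 (chr1:211675602-211675721, minus strand): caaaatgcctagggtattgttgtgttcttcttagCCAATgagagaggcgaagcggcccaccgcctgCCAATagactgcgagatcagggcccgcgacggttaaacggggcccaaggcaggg
CDC25C (chr5:138331785-138331904, minus strand): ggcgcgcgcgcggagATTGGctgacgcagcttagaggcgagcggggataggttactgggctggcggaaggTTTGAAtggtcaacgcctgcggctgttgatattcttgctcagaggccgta
CDC25A (chr3:48188398-48188517, minus strand): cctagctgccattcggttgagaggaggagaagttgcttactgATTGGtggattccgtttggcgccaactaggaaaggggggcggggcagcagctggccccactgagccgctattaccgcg

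*PLK1* at −0.76 and *CDC25C* at −0.32 both carry an NF-Y box upstream of a CHR word in these stretches, and *CDK1* at −0.57 carries 2 of the boxes and 3 CHR words. *CDC25B* at −0.91 and *CDC25A* at −0.18 carry an NF-Y box and neither TTTGAA nor TTTAAA there, and *NEK2* at −0.55 carries 2 of the boxes. Only these 2 forms of the CHR were searched, so other forms may be present. These 6 starts were chosen after the matches were seen, so the stretches show no relation between words and differences. *AURKB* and *PLK4*, not printed, have an NF-Y box in an entry as well, and *PLK4* a CHR word in another.

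**Figure D3:**
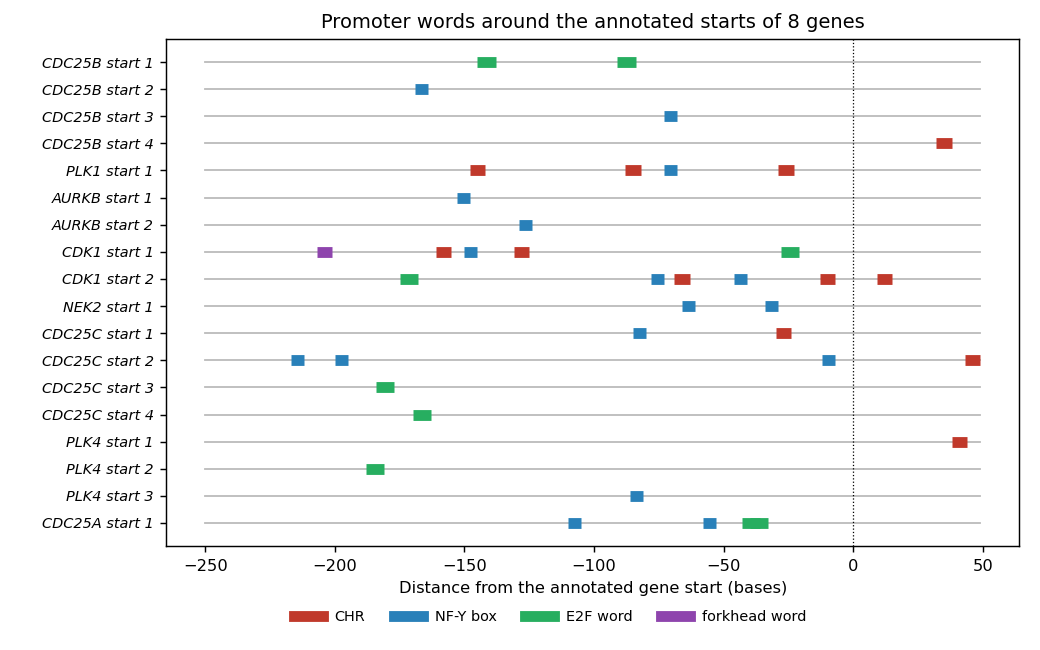
Position of 4 promoter words (CHR, NF-Y box, E2F word, forkhead word) relative to each annotated start (bases, with the start at 0) for 18 RefSeq promoters of 8 of the genes, ordered from the lowest log2 difference at the top. A CHR word lies 24 to 29 bases before the start in *PLK1* and 25 to 30 bases before the first listed start in *CDC25C*.

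In the fit across the whole table, 6 of the 10 had an adjusted p under 0.05 and all 6 were lower, namely *FOXM1*, *PLK1*, *AURKA*, *AURKB*, *NEK2* and *CDC25B*. Of all 15504 tested genes 9.49% were called lower and 10.2% higher, 1471 and 1575 genes (limma, Benjamini-Hochberg), or 1816 and 1088 under median-of-ratios scaling. The 10 were chosen with this contrast known, so nothing is read from their count. Which of them were called, and in which fits, shows how the values depend on the settings and is no further support. *FOXM1*, *PLK1* and *CDC25B* were also called in each of the other 11 fits, whereas *AURKA* and *NEK2* were called in none of the 4 fits without 1 library, and *AURKB* neither without si-DLX6 library 2 nor without si-control library 1. With 1 library left out the difference was −0.42 to −0.36 for *AURKA*, −0.62 to −0.49 for *NEK2* and −0.71 to −0.50 for *AURKB*. With no filter on low values these 3 were not called. *CDK1* was called in 7 of the other fits, and *CDC25C* in 1, the fit with the replicate number as a block. The median log2 difference of the 10 was −0.56, from −0.91 to −0.18, beside a median of 0.04 over all tested genes. A fraction of 3.10% of tested genes had a lower difference than *FOXM1*, 2.53% a lower one than *CDC25B* and 28.4% a lower one than *CDC25A*.

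**Figure D4:**
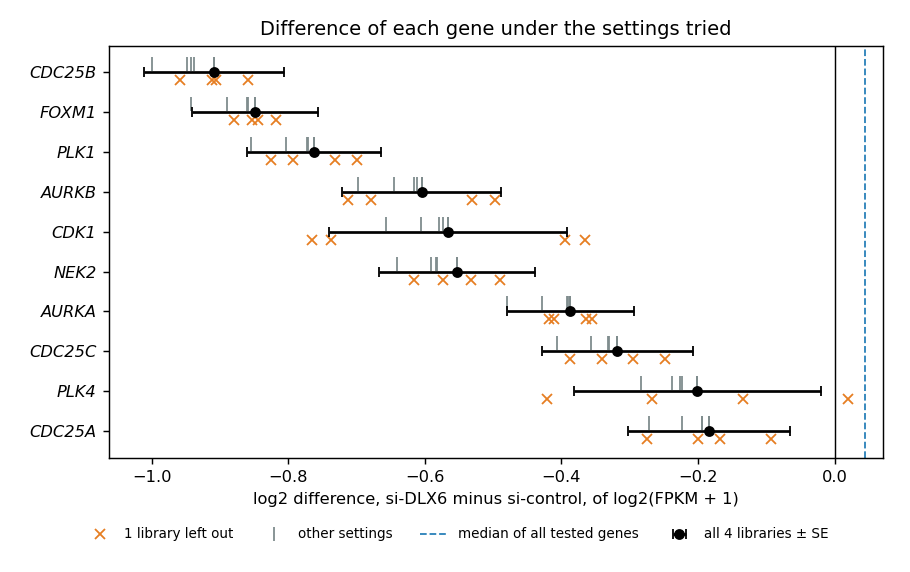
Log2 difference of each gene, si-DLX6 minus si-control on the scale of log2(FPKM + 1), from all 4 libraries with its SE (black), with 1 library left out (crosses) and under the other settings (ticks); the dashed line is the median of all tested genes at 0.04. *CDC25B*, *FOXM1* and *PLK1* stay at or below −0.70 throughout, and *PLK4* crosses 0 when si-DLX6 library 1 is left out.

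The genes that act with these 10 were taken from 9 lists of 142 genes, of which 138 were tested. In all, 24 of the 138 fell and 4 rose at an adjusted p under 0.05 (limma, Benjamini-Hochberg), while 9.49% of all tested genes fell and 10.2% rose. Their median log2 difference was −0.14. Of the 24 falls, 13 were called in all 4 fits without 1 library, and of the 4 rises 0 were. With no filter on low values 3 fell and 0 rose. The lists were made with earlier results of these data known.

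Among 14 partners and direct regulators of CDK1, 4 fell and 0 rose, with a median of −0.31. The S and G2 phase cyclin *CCNA2* fell to 17.7 and 20.4 FPKM with si-DLX6, against 34.3 and 42.1 FPKM with si-control (−0.96, adjusted p = 0.00857, limma). *CDK7*, the catalytic subunit of the kinase that activates CDKs, fell by 0.65 on the log2 scale. The CDK-binding protein *CKS2* (−0.46) and the mitotic cyclin *CCNB1* (−0.44) fell as well. *CCNB1* was at 165 and 163 FPKM with si-DLX6, against 210 and 236 FPKM with si-control. *CCNB1* was called in 0, *CKS2* in 1 and *CDK7* in 2 of the 4 fits without 1 library. *WEE1* (−0.18) and *PKMYT1* (−0.38), the kinases that oppose CDC25, did not pass the test (adjusted p = 0.416 and 0.133, limma), and were named for their role, after their values were seen.

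Among 10 tested partners of the Aurora kinases, 2 fell and 0 rose, with a median of −0.30. Borealin (*CDCA8*), a subunit of the AURKB complex, fell to 32.3 and 30.8 FPKM with si-DLX6, against 61.5 and 65.7 FPKM with si-control (−0.99, adjusted p = 0.00408, limma). *TPX2*, the activator of AURKA on the spindle, fell by 0.43 on the log2 scale and was called in 0 of the 4 fits without 1 library. Survivin (*BIRC5*), of the same complex as borealin, was at 101.9 and 89.1 FPKM with si-DLX6, against 97.0 and 87.5 FPKM with si-control, and did not pass the test (0.05, adjusted p = 0.799, limma). It was named after its values were seen.

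Among 18 other mitotic kinases 1 fell and 1 rose, with a median of −0.06. *VRK1*, a chromatin kinase, fell to 21.7 and 22.4 FPKM with si-DLX6, against 36.9 and 41.3 FPKM with si-control (−0.79, adjusted p = 0.00758, limma). *NEK11*, a NIMA-related kinase linked to the DNA damage checkpoint, rose to 3.65 and 3.99 FPKM with si-DLX6, against 1.71 and 1.55 FPKM with si-control (0.88, adjusted p = 0.0166, limma), a call kept in 1 of the 4 fits without 1 library. The checkpoint kinases *BUB1* (−0.07) and *TTK* (−0.21) and the kinase *MELK* (−0.10), named after their values were seen, did not pass the test (adjusted p = 0.7, 0.379 and 0.540, limma). Of 11 tested polo-like kinases and centriole factors 1 fell, the centrosome protein *CEP85* (−0.60, called in 0 of the 4 fits without 1 library), and 0 rose.

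Among 15 subunits of the complexes that act at CHR elements and CCAAT boxes, 1 fell and 0 rose, with a median of −0.02. *E2F4*, an E2F of the DREAM repressor complex, fell to 47.7 and 45.4 FPKM with si-DLX6, against 77.4 and 77.0 FPKM with si-control (−0.72, adjusted p = 0.00701, limma). *MYBL2*, which encodes the partner of FOXM1 at G2/M promoters, was at 132 and 119 FPKM with si-DLX6, against 126 and 111 FPKM with si-control (0.09, adjusted p = 0.627, limma), and was likewise named after its values were seen. Of 22 other G2/M genes 13 did not pass the test, among them *MKI67* (−0.03) and *CENPF* (−0.08), named after their values were seen. The other 9 fell and 0 rose, with a median of −0.36 over all 22. The cytokinesis scaffold *ANLN* (−1.17), the ubiquitin ligase subunit *CCNF* (−0.95), the ubiquitin-conjugating enzyme *UBE2C* (−0.72) and the checkpoint protein *BUB1B* (−0.70) led them, and each was called in all 4 fits without 1 library.

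Among 16 tested factors that act on CDC25 proteins, 2 fell and 0 rose, with a median of −0.09. The checkpoint kinase *CHEK1* fell by 0.46 on the log2 scale and the phosphoprotein-binding *YWHAQ* by 0.52, and they were called in 0 and 2 of the 4 fits without 1 library. Among 15 mitotic exit phosphatases 1 fell and 2 rose. The catalytic subunit *PPP1CA* fell to 107 and 91.5 FPKM with si-DLX6, against 191 and 172 FPKM with si-control (−0.87, adjusted p = 0.00758, limma). *CDC14B* (0.73) and the catalytic subunit *PPP2CB* (0.55) rose, in calls kept in 1 and 2 of the 4 fits without 1 library. *CDC14B* was also not called with a pseudocount of 0.1 (0.81), nor *PPP2CB* under median-of-ratios scaling (0.46). Of 17 genes of the anaphase-promoting complex and its partners, 3 fell and 1 rose. The catalytic subunit *ANAPC11* (−0.97), the chain-extending enzyme *UBE2S* (−0.89) and the inhibitor *FBXO5* (−0.87) fell, and the subunit *ANAPC16* (0.54) rose, which was called in 0 of the 4 fits without 1 library. *FBXO5* lost its call without si-control library 2.

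**Figure D5:**
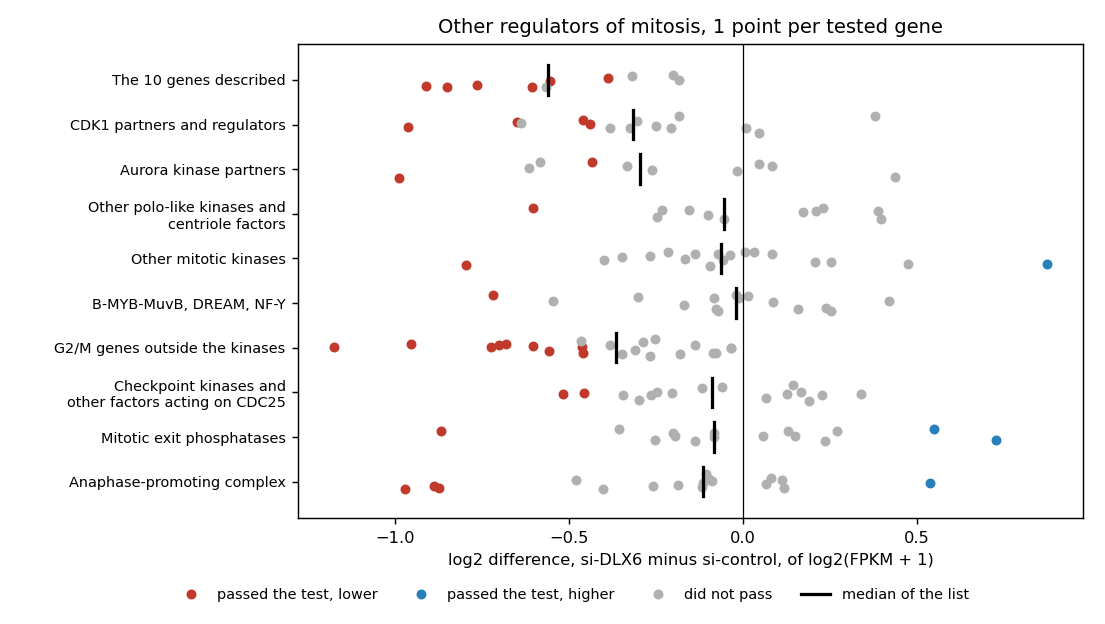
Log2 difference, si-DLX6 minus si-control on the scale of log2(FPKM + 1), of the 10 genes and of the tested genes of the 9 lists, 1 point per gene (red, adjusted p under 0.05 and lower; blue, higher; grey, not passed) with the median of each list as a black bar. The bar of the G2/M genes lies at −0.36 and that of the B-MYB-MuvB, DREAM and NF-Y subunits at −0.02.

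The 5 genes nearest to the mean profile of the 10 were taken from 6274 candidate genes, those whose mean over the libraries reached 10 FPKM, by distance between centred log2 values over 4 libraries. They were *C18orf21*, the protease *CAPN1*, the folate enzyme *MTHFD1*, the RNA-binding *HNRNPDL* and the mitochondrial ribosomal protein *MRPL15*, at distances of 0.024 to 0.045 on the log2 scale. The 4 libraries give few ways to differ, and none of the 5 is in the 9 lists. *MTHFD1*, for example, was at 67.8 and 73.8 FPKM with si-DLX6, against 101.5 and 105.8 FPKM with si-control.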

How the data were processed

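RNA of 2 si-DLX6 and 2 si-control A549 samples was sequenced; per the labels' protocols, each library was prepared with the SMARTER mRNA-Seq kit and 1.3 µg of RNA went in. The authors deposited 1 table with 1 value per gene and library. The header of the table names no unit. The deposited values were taken as FPKM, because, once scaled between libraries by 1 factor each, a gene's values are whole multiples of a step of its own. The sources used here name no aligner or counter and do not state strand use. The submitters' processing notes list the mouse builds GRCm38 and mm10, although the rows carry human symbols, so positions come from GENCODE 29 (GRCh38) by symbol, not from the file. Columns carry the names found in the sample descriptions, and groups come from the titles.

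Scaling by these factors and dividing by the steps gave whole reads, to within 0.01 of a read or closer, for 28637 of 28637 genes above 0. A factor shared by all 4 reads of a gene is lost. Library totals come from mitochondrial genes of known length, and intervals cover counting error only. Differences were fitted with limma's trend method (version 3.58.1, in R version 4.3.3) on log2(FPKM + 1), with group as the only term. A gene was tested if 2 or more libraries reached 1 FPKM. This scale understates the change of low genes. P-values were adjusted over all genes (Benjamini-Hochberg). With 2 libraries a group, an exact permutation test of a single value cannot go below 0.333 (two-sided), so none was run. The 10 genes and all lists were chosen with earlier results of these data known. Named by rule were the 10, up to 4 called genes per list with the largest difference and those against its majority, and the 5 nearest profiles. Alternatives were another pseudocount, 2 other filters, 2 other scalings, a replicate block, leaving out each library, limma-voom on recovered reads and a stricter threshold.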

Additional observations from a re-analysis of the deposited data

How the results depend on the processing

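Of 110 values, the log2 differences of the 10 genes under 11 alternatives, 109 were below 0; the 1 above 0 was *PLK4* without si-DLX6 library 1. Their median of −0.56 was −0.65 with median-of-ratios and −0.60 with upper-quartile scaling, and −0.57 to −0.44 with 1 library left out. The median of all tested genes moved down with these scalings too, from 0.045 to −0.033 and 0.01. With no filter on low values, which adds genes with few reads, 372 genes were called (167 higher, 205 lower), 3 of the 10, and 3 lower and 0 higher of the other mitotic regulators. At an adjusted p limit of 0.01 there were 658 calls (286 higher, 372 lower). Leaving out 1 library, and so fitting 3, gave 1365 to 1689 calls (682 to 852 higher, 683 to 915 lower), 4 of the 10 each time, and 13 to 18 lower and 0 to 3 higher of the other regulators; the lone library is there assumed to vary like the other group. The cause of each change in these counts beyond the smaller or larger number of genes or libraries was not tested.

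The labels do not say that equal replicate numbers pair libraries, and 2 pairs are too few to show it. Deviations of same-numbered libraries correlated at 0.202 across genes. With the replicate number as a block, 5119 genes were called (2749 higher, 2370 lower), 8 of the 10 with *CDK1* and *CDC25C* added, and 43 lower and 10 higher of the other regulators. *PLK4* and *NEK2* had the fewest reads of the 10, with 235 to 359 and 289 to 485 reads a library. The part of depth in the spread of their values was not tested.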
